A study of Homo sapiens with 8 samples.

Results

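The induced SF3B1-K700E libraries were set against all other libraries of the series. SF3B1 is a subunit of the U2 small nuclear ribonucleoprotein, which binds the branch point of an intron before the acceptor, the 3′ splice site, is chosen. The K700E substitution recurs in myelodysplastic syndromes with ring sideroblasts and in other haematological cancers. In the literature it is known above all for the use of cryptic acceptors that lie a short way upstream of the usual ones, many of which shift the reading frame and expose the mRNA to nonsense-mediated decay.

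The members were the 2 libraries whose titles mark K562 cells with the K700E transgene and induction (K700E_induced), of 8 libraries in all. The other 6 were 2 of uninduced cells with the same transgene (K700E_uninduced), 2 of cells with an induced wild-type SF3B1 transgene (WT_induced) and 2 of uninduced cells with the wild-type transgene (WT_uninduced). K562 is an established human erythroleukaemia line with erythroid and megakaryocytic potential, and each culture kept its own endogenous SF3B1 genes. Induction was with doxycycline at 1 ug/ml for 48 h, so the drug and the transgene came together, and WT_induced is the only set that shares the drug without the substitution. Nothing in the labels says whether a line was a clone or whether replicates were separate cultures, so the p-values speak only of the variation among these libraries, part of which may be technical.

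Total RNA had been depleted of ribosomal RNA and sequenced. The deposited values are FPKM (fragments per kilobase of transcript, scaled to sequencing depth) of reference and assembled transcripts, made library by library. Between 2343 and 3395 spliced transcripts were assembled per library, with 2511 and 3223 in K700E_induced. The coverage that 1 FPKM stood for ran from 3.29 to 4.77, with 4.45 and 3.94 in K700E_induced, and read totals are not used here. A reference transcript can be listed at 0 where its reads were assigned to another form of the same gene, and in 2565 of the 11329 tested genes some library had a value of 0. SF3B1 itself stood at 28.6 and 39.0 FPKM in K700E_induced and at 26.9 to 37.7 FPKM in the 6 others (log2 fold change 0.04 ± 0.27 SE, limma adjusted p 0.991). Replicate 1 of K700E_induced lay within the range of the others and replicate 2 just above it, so the groups overlapped, and "induced" names the treatment, because the values here do not separate the transgene from the endogenous gene.

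The clearest change in splicing was in YIPF2, which encodes a multi-pass membrane protein of the Golgi. Its last intron has a donor at 11033947 on chromosome 19 (hg19, minus strand), and the reference acceptor closes the intron at 11033851. In both K700E_induced libraries the intron instead ended 17 nt further upstream, at 11033868, a shift that is not a multiple of 3. The sequences below are shown because they carry this upstream shift. Each has the last 60 bases of the intron and the first 10 bases of the exon that the reference acceptor opens, 5′ to 3′ on the gene's strand. The capitals mark the bases that end the intron at the new acceptor and, further to the right, at the reference acceptor. The first set was found in K700E_induced and in none of the 6 others, YIPF2 in both libraries and the remaining genes in 1 library each. It shows only part of the 9 sequences read for such sites.
YIPF2: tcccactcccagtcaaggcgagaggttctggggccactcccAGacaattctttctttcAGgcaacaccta
CRTC2: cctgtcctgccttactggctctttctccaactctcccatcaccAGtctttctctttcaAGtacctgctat
TMEM259: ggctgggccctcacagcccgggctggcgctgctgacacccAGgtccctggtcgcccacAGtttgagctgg
UNC13D: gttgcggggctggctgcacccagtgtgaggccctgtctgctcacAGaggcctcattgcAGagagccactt
RPUSD3: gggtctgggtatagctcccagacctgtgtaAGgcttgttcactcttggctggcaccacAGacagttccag
PML: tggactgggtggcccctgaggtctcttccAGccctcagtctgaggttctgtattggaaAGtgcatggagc

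The set for comparison holds acceptors of the same window that were found in 1 of the 6 other libraries and in neither K700E_induced library. It too shows only part of those read, which were 8.
ERCC3: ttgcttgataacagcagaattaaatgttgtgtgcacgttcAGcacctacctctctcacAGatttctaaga
RGL2: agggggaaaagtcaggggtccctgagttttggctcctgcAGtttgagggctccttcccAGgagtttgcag
ZNF655: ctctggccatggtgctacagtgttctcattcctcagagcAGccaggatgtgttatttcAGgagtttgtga

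These sequences were read from GENCODE transcripts that retain the end of the intron, on GRCh38, where the YIPF2 stretch lies at chr19:10923165-10923234 on the minus strand. Sequence could be read for 283 of 1181 acceptors 3 to 50 nt upstream of a reference acceptor, and in 270 of these AG stood at both sites. Over the 18 bases before the new acceptor, the 9 sequences found in K700E_induced alone had a median of 11 pyrimidines and 2 adenines. The 8 found in the 6 others alone had medians of 11.5 pyrimidines and 3 adenines. These are descriptions of few sites, with no test.

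On the new YIPF2 acceptor there were 51.4 and 57.1 FPKM in K700E_induced and 0 in each of the 6 others. On the reference acceptor there were 0 FPKM in both K700E_induced libraries, against 30.2 and 54.3 in K700E_uninduced, 52.8 and 29.2 in WT_induced, and 45.2 and 49.4 FPKM in WT_uninduced. Wherever the 6 others are listed below, they stand in this same order, replicate 1 before replicate 2. The switch was thus complete in the deposited assignment, and the groups did not overlap at either site. Of 1438 pairs of acceptors that share a donor and lie 3 to 50 nt apart, 2 passed limma's test of the ratio of upstream to downstream use at an adjusted p of 0.05 (0.139%), and 75 had an unadjusted p under 0.05 (5.22%). YIPF2 had the smallest p (adjusted p 0.002719). Its pair exists only because the new acceptor was found in K700E_induced, so nothing is read from this p. In the 8 fits that left out 1 library, the YIPF2 log2 ratio difference was 13.11 to 13.29, a size that depends on the pseudocount. The YIPF2 total overlapped between the groups, with 51.4 FPKM in K700E_induced replicate 1 within the range of the 6 others and 57.1 FPKM in replicate 2 above it, and 54.2 ± 4.02 FPKM in K700E_induced (SD, n = 2) and 43.5 ± 11.1 FPKM in the 6 others (SD, n = 6; log2 fold change 0.36 ± 0.32 SE, limma adjusted p 0.943).

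New acceptors as a class were then counted in every library. A new acceptor is absent from the reference models but joined to a reference donor, and the window of 10 to 30 nt upstream of the reference acceptor is the one the literature gives for K700E. In this window 23 and 27 new acceptors were found in the K700E_induced libraries, against 9, 14, 18, 14, 14 and 12 in the 6 others. Both K700E_induced libraries stood above all others, with 25.0 ± 2.83 acceptors (SD, n = 2) against 13.5 ± 2.95 (SD, n = 6). The difference of 11.5 acceptors had an exact two-sided permutation p of 0.03571, the smallest that 28 splits of 2 against 6 can give, and 0.125 after Benjamini-Hochberg adjustment over the 7 windows counted, so it failed the correction. Counting acceptors per library was chosen after values were seen.

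The excess was seen on the upstream side. From 10 to 30 nt downstream, 13 and 14 new acceptors were found in K700E_induced and 8 to 23 in the 6 others (exact permutation p 1.0). From 3 to 9 nt upstream the counts were 11 and 13 in K700E_induced and 9 to 15 in the others (exact permutation p 1.0). All new acceptors together numbered 205 and 287 in K700E_induced, within the 173 to 306 of the 6 others. The window held 11.2% and 9.41% of all new acceptors in the K700E_induced libraries and 2.94% to 6.94% in the others (exact permutation p 0.03571, adjusted over the 7 windows 0.125). Among libraries with replicate number 1, which the deposited files also place on a lane of their own, the counts were 23 in K700E_induced against 9, 18 and 14, and among those with number 2 they were 27 against 14, 14 and 12.

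**Figure D1:**
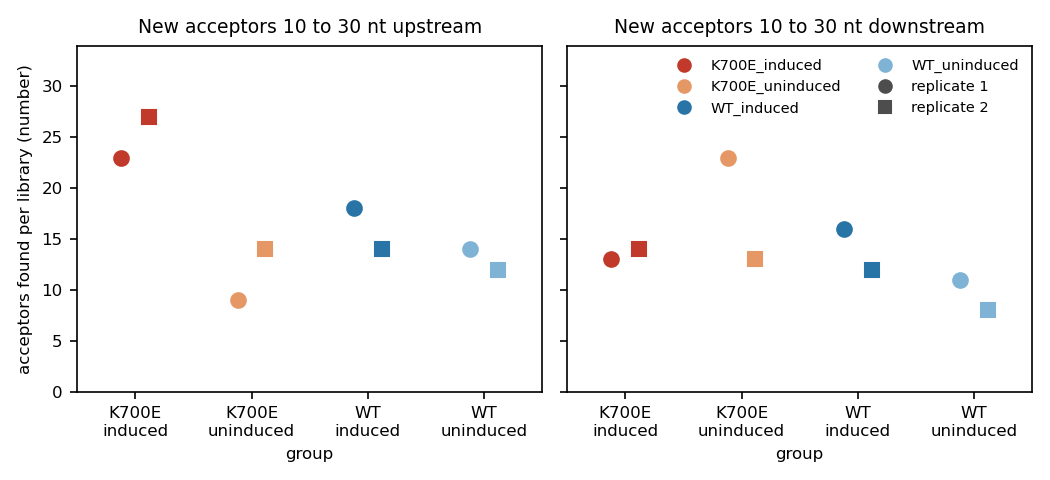
Number of new acceptors per library that lie 10 to 30 nt upstream (left) or downstream (right) of the reference acceptor of the same donor; colour gives the group and marker shape the replicate. Upstream, K700E_induced had 23 and 27 and the 6 others 9 to 18; downstream, K700E_induced had 13 and 14 and the others 8 to 23.

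**Figure D2:**
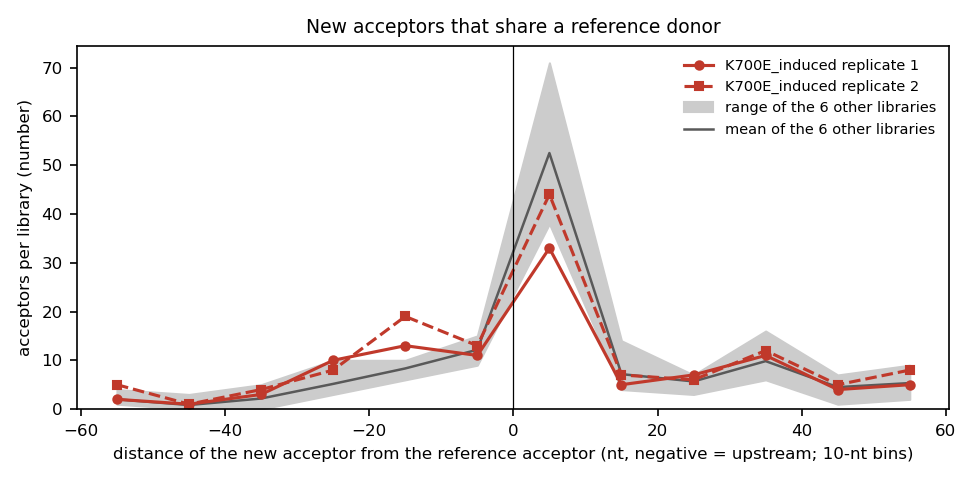
Number of new acceptors per library in bins of 10 nt by distance from the reference acceptor (negative values are upstream); red lines are the K700E_induced libraries, and the grey band and line are the range and mean of the 6 others. In the bin from 20 to 10 nt upstream the K700E_induced libraries had 13 and 19 acceptors and the 6 others 6 to 10.

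The window held 109 different new acceptors over all 8 libraries, of which 38 were found in K700E_induced and in none of the others and 60 in the others alone. Of the 38, 20 were in replicate 1 alone, 17 in replicate 2 alone and 1, YIPF2, in both. The higher number was made of sites that, apart from YIPF2, did not recur between the K700E_induced libraries. The 38 lay a median of 20 nt upstream, 21 of them between 17 and 22 nt. The 60 lay a median of 19.5 nt upstream, 25 of them between 17 and 22 nt. The shift was a multiple of 3 at 14 of the 38 (36.8%) and at 26 of the 60 (43.3%).

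Most of the sites carried by a single K700E_induced library took only some of the transcripts, and the examples that follow were chosen after their values were seen. CANX, which encodes the chaperone calnexin of the endoplasmic reticulum, had 79.3 FPKM on an acceptor 20 nt upstream in K700E_induced replicate 1 beside 113 FPKM on the reference acceptor. DCUN1D5, which encodes a factor that promotes cullin neddylation, had 33.9 FPKM on an acceptor 20 nt upstream in replicate 1 and 6.92 FPKM on the reference acceptor. CKAP2, which encodes a protein of the mitotic spindle, had 27.5 FPKM on an acceptor 20 nt upstream in replicate 1, where the reference acceptor was at 0. None of these new sites was above 0 in any of the other 7 libraries.

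Further sites of the same kind were found in other genes. AARS1, an alanyl-tRNA synthetase gene, had 35.2 FPKM on an acceptor 27 nt upstream in replicate 1 beside 138 FPKM on the reference acceptor. MAP2K7, a kinase gene of the JNK pathway, had 30.7 FPKM on an acceptor 21 nt upstream in replicate 2 beside 12.6 FPKM on the reference acceptor. NOP56, which encodes a core protein of box C/D small nucleolar ribonucleoproteins, had 23.6 FPKM on an acceptor 25 nt upstream in replicate 2 beside 37.8 FPKM on the reference acceptor. MTOR, a growth-control kinase gene, had 22.95 FPKM on an acceptor 27 nt upstream in replicate 1 beside 3.03 FPKM on the reference acceptor.

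Of 39 genes listed here as targets of mutant SF3B1, YIPF2 and CHTF18 were among the genes with such a site in K700E_induced alone. The list was drawn up with earlier results of these data known, so the overlap is no independent support. CHTF18, which encodes a subunit of an alternative clamp loader for DNA replication, had 11.9 FPKM on an acceptor 20 nt upstream in replicate 1 beside 14.1 FPKM on the reference acceptor. MAP3K7, a kinase gene of the TGF-beta and NF-kappaB pathways and a much studied target, did not carry its upstream acceptor in K700E_induced. The site 20 nt upstream had 25.1 FPKM in WT_induced replicate 1 and 0 in both K700E_induced libraries. An assembled MAP3K7 form of 14 introns was at 8.784 and 5.245 FPKM in K700E_induced and at 0 in the 6 others. It is 1 of the 151 isoforms of this kind counted below. By gene level, SLC3A2, the heavy chain gene of amino acid transporters, was the 1 of 37 tested targets above the range of the 6 others, at 169 and 165 FPKM in K700E_induced against 103 to 158, and PPP2R5A, a regulatory subunit gene of protein phosphatase 2A, the 1 below it, at 11.0 and 6.34 FPKM against 19.4 to 43.2. Neither passed the test over all genes (limma adjusted p 0.903 and 0.453), and the median log2 fold change of the list was 0.005 beside 0.010 over all genes. BRD9, a bromodomain gene of the non-canonical BAF complex and another known target, was within range at 17.6 and 9.78 FPKM against 9.08 to 106.

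Over pairs of acceptors measured in every library, the balance moved little. A pair was kept if its sites together had 1 FPKM or more in each library, so either site could be at 0. YIPF2 and new acceptors found in a single library were thus included, and this share is not independent of the counts above. Over the 270 pairs 10 to 30 nt apart that were measured in every library, the mean share of the upstream site was 43.4% and 42.5% in K700E_induced and 38.9% to 42.0% in the 6 others. Both K700E_induced libraries were above the others, but the difference of 2.26 percentage points had an exact permutation p of 0.07143. Over all 944 pairs 3 to 50 nt apart the shares were 54.6% and 54.4% against 53.4% to 56.5% (exact permutation p 0.786). Of 417 pairs in this window, an upstream site was used in both K700E_induced libraries and in none of the others in 3 (PKMYT1, TMEM91 and YIPF2), and a downstream site in 2 (ABHD11 and SHMT2). The same counts for the other groups, each against its own 6 others, were 0 upstream and 3 downstream for K700E_uninduced, 1 and 0 for WT_induced, and 0 and 4 for WT_uninduced, with no test of these counts.

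The other pair to pass the test was in TMEM219, a gene for a membrane receptor that binds IGFBP3. Its upstream acceptor, 3 nt from the other, had 49.6 and 43.7 FPKM in K700E_induced, 7.64 FPKM in K700E_uninduced replicate 1 and 0 in the remaining 5. The downstream acceptor was at 0 in K700E_induced and at 15.2 to 78.0 FPKM in the 6 others (limma adjusted p 0.0224). The call was lost with a pseudocount of 0.1 in place of 0.5 (adjusted p 0.0535) and in 3 of 8 fits that left out 1 library (highest adjusted p 0.0714). PKMYT1, a kinase gene that restrains entry into mitosis, had 19.6 and 34.9 FPKM on an acceptor 24 nt upstream in K700E_induced and 0 in the 6 others, while its downstream site ran from 77.7 to 81.3 FPKM against 46.6 to 88.5 (adjusted p 0.25). NET1, a RhoA exchange factor gene, had 96.5 and 29.7 FPKM on the upstream site of a pair 33 nt apart, and 0 in the others (adjusted p 0.0738). The PKMYT1 and NET1 pairs exist only because the upstream site was found in K700E_induced, so nothing is read from their p.

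The next pairs by p went in both directions, and none passed the test. The SHMT2, MXD1 and PIK3R2 pairs too exist only because a site was found in K700E_induced, so nothing is read from their p. SHMT2, which encodes the mitochondrial serine hydroxymethyltransferase, had 21.5 and 28.5 FPKM on a site 30 nt downstream in K700E_induced and 0 in the 6 others, beside 104 and 93.2 FPKM against 75.7 to 183 on the upstream site (limma adjusted p 0.123). MXD1, a MAX dimerisation partner gene, had 4.06 and 13.4 FPKM on a site 3 nt downstream and 0 in the 6 others (adjusted p 0.123). PIK3R2, a PI3-kinase regulatory subunit gene, had 27.8 and 23.1 FPKM on the upstream site of a pair 49 nt apart and 0 in the others (adjusted p 0.123). SUN1, a gene of the nuclear envelope, was at 0 on the upstream site in K700E_induced and at 6.11 to 27.4 FPKM in the 6 others (adjusted p 0.127).

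Whole transcripts were compared as their share of the gene. Of 24565 transcripts tested, 7 passed limma's test (0.0285%), in YIPF2, DLST, BABAM2, TMEM219, C20orf96 and, with a pair of transcripts, SNAR-A10, and 1159 had an unadjusted p under 0.05 (4.72%). These transcripts were outside the rule for named items and are named because they passed. A transcript was tested only if its mean share lay between a lower and an upper limit. The DLST, BABAM2 and C20orf96 forms were at 0 in the 6 others, so they met the lower limit only through the K700E_induced libraries. The TMEM219 form was at 7.64 FPKM in K700E_uninduced replicate 1 and at 0 in the rest of the 6. It too met the lower limit only through K700E_induced. The YIPF2 reference form held its whole gene in the 6 others, so it met the upper limit only through K700E_induced. Nothing is read from the p of these forms. All 7 calls were lost with a pseudocount of 0.1 (adjusted p 0.0744 to 0.0846). Leaving out any of the 6 others ended the DLST, C20orf96 and BABAM2 calls, while that of YIPF2 held in all 8 such fits. The SNAR-A10 total was 0 in 3 of the 6 others, K700E_uninduced replicate 2, WT_induced replicate 2 and WT_uninduced replicate 1, so no share exists there and the pseudocount alone set their ratio in the fit; its calls are not read further.

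DLST, which encodes the E2 subunit of the 2-oxoglutarate dehydrogenase complex of the citric acid cycle, was assigned wholly to a reference form that skips an exon. This form was at 23.6 and 14.1 FPKM in K700E_induced and at 0 in the 6 others (limma adjusted p 0.0388, from which nothing is read). The skipped exon spans 75352289 to 75352337 on chromosome 14, 49 nt, so the reading frame is not kept. The full-length DLST transcript was at 0 in both K700E_induced libraries, against 25.1, 40.2, 22.6, 30.3, 0 and 14.5 FPKM in the 6 others. WT_uninduced replicate 1, the other library at 0, carried yet another form. The DLST total stood at 23.6 and 14.1 FPKM in K700E_induced and at 14.5 to 40.2 FPKM in the 6 others.

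BABAM2, a gene of the BRCA1-A and BRISC deubiquitinase complexes, was assigned wholly to a reference form with a later acceptor in the last intron. The form was at 17.5 and 15.6 FPKM in K700E_induced and 0 in the 6 others (limma adjusted p 0.0388, from which nothing is read). The same late acceptor was carried by another assembled form in K700E_uninduced replicate 2 at 18.8 FPKM, so the acceptor itself was not confined to K700E_induced. C20orf96 was assigned to a short assembled form with 1 intron at 27.8 and 34.3 FPKM in K700E_induced, while the 6 others carried forms with 9 or 10 introns at 7.48 to 19.8 FPKM. SNAR-A10 is 1 of many near-identical small RNA genes of 121 nt on chromosome 19, where reads cannot be placed on a single copy, and its values are uncertain.

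Just past the threshold stood PNPLA6 (limma adjusted p 0.0552), NECAP2 (0.0815), SPTB (0.0815), SNAR-A14 (0.083) and PSMG2 (0.0848). The forms of PNPLA6, NECAP2, SPTB and SNAR-A14 were also at 0 in the 6 others, so nothing is read from their p. The PSMG2 form was at 6.77 FPKM in K700E_uninduced replicate 2 and at 0 in the rest of the 6. It met the lower limit of share only through K700E_induced, so nothing is read from its p either. SPTB, the erythroid beta-spectrin gene, was assigned to an assembled form that joins the gene to an exon far upstream, at 27.6 and 22.4 FPKM in K700E_induced and 0 in the 6 others. Its reference form NM_000347 was at 0 in both K700E_induced libraries and at 13.5 to 28.2 FPKM in all 6 others. NECAP2, a gene of clathrin coat assembly, was assigned mainly to NM_001145278, which differs in its first donor, at 29.2 and 36.3 FPKM in K700E_induced and 0 in the 6 others.

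Presence and absence gave a wider list. Of 39694 spliced isoforms, 151 were found in both K700E_induced libraries and in none of the 6 others (0.38%), 58 of them assembled, and 73 were found in all 6 others and in neither K700E_induced library (0.184%). First by level was LMNA, the gene of the nuclear lamins A and C. Its reference form NM_170708, which lacks the 90-nt exon at 156107445 to 156107534 on chromosome 1, was at 78.2 and 40.6 FPKM in K700E_induced and at 0 in the 6 others. The full lamin A form NM_170707 had 0 and 0 FPKM in K700E_induced, against 56.8, 60.2, 37.0, 29.6, 44.2 and 39.0 FPKM in the 6 others. The lamin C form NM_005572 was at 0 and 67.2 FPKM in K700E_induced and at 43.4 to 94.8 FPKM in the others, so the lamin C form overlapped between the groups while the lamin A forms did not. These counts carry no test.

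**Figure D3:**
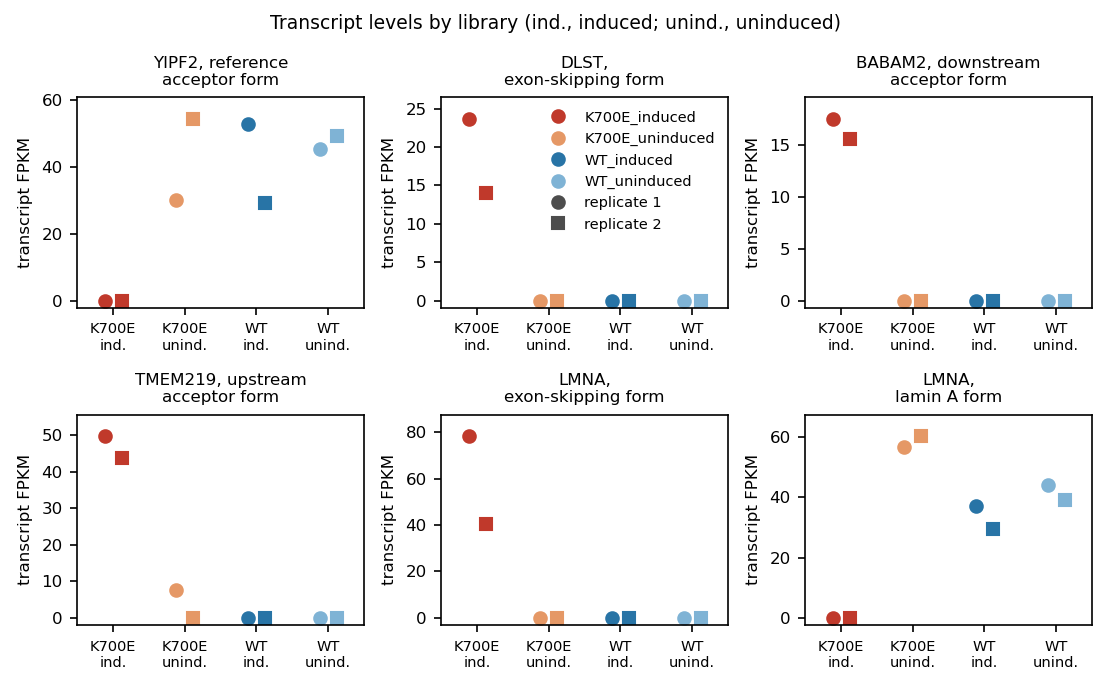
FPKM of 6 transcripts in each library, with K700E_induced at the left of each panel; colour gives the group and marker shape the replicate. The YIPF2 reference form and the LMNA lamin A form were at 0 in both K700E_induced libraries and above 0 in all 6 others, and the LMNA, DLST and BABAM2 alternative forms were above 0 in K700E_induced alone.

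Among the next isoforms by level, most were assembled and many were partial. PPP1R35, which encodes a centrosomal protein, had a form that skips a 137-nt exon at 84.5 and 36.8 FPKM in K700E_induced, and 0 in the others. UQCC2, an assembly factor gene of respiratory complex III, had a form with a new first exon at 91.2 and 33.0 FPKM, and 0 in the others. KMT5A, the histone H4 lysine methyltransferase gene, had a form at 83.2 and 30.4 FPKM, and PUSL1, a pseudouridine synthase-like gene, a form at 40.2 and 32.6 FPKM, both at 0 in the others. OPLAH, NET1, NECAP2, C20orf96 and RBM38 completed the first 10, with a lower K700E_induced value of 27.8 to 29.96 FPKM.

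The missing isoforms included the following. HNRNPA2B1 form NM_031243, which encodes the longer B1 protein of this splicing repressor, was at 0 in both K700E_induced libraries and at 24.6 to 88.9 FPKM in the 6 others. An assembled form with that form's extra exon stood at 164 FPKM in K700E_induced replicate 1 and another at 243 FPKM in replicate 2, so the exon was not lost. SERBP1 form NM_015640, of an mRNA-binding protein gene on the target list, was at 0 in K700E_induced and at 13.1 to 59.5 FPKM in the others. MRPL21, a mitochondrial ribosomal protein gene, had 0 FPKM of NM_181514 in K700E_induced against 18.1 to 108 FPKM in the 6 others, and 104 and 40.5 FPKM of NM_181515 against 0 to 18.9.

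Junctions followed the same pattern. Of 163166 junctions, 315 were found in both K700E_induced libraries and in none of the 6 others (0.193%), and of these 294 were reference junctions. Of 5257 junctions unknown to the reference models, 21 were found in both and in no other (0.399%). They were 10 with a new donor, 4 with a new acceptor, 2 that newly joined known sites and 5 with both ends new. YIPF2 was the highest by the lower of the 2 values. LSM14B, an RNA-binding protein gene of processing bodies, had a new acceptor 2200 nt upstream of the reference one at 37.6 and 26.1 FPKM. RHAG, the Rh-associated glycoprotein gene of the red cell membrane, had a new donor 1 nt from the reference donor at 24.6 and 31.6 FPKM. SDHAF2, an assembly factor gene of succinate dehydrogenase, had a new donor at 26.2 and 18.9 FPKM.

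The same counts for each of the other groups against its own 6 others show the size of these numbers. Isoforms found in both libraries of a group and no other numbered 151 for K700E_induced, 158 for K700E_uninduced, 167 for WT_induced and 155 for WT_uninduced. All junctions found in both libraries of a group and no other numbered 315 for K700E_induced, 416 for K700E_uninduced, 302 for WT_induced and 384 for WT_uninduced. Of these, unknown junctions numbered 21 for K700E_induced, 20 for K700E_uninduced, 15 for WT_induced and 16 for WT_uninduced. Isoforms missing from a group alone numbered 73 for K700E_induced, 48 for K700E_uninduced, 61 for WT_induced and 66 for WT_uninduced. Missing junctions numbered 364 for K700E_induced, 166 for K700E_uninduced, 319 for WT_induced and 273 for WT_uninduced. K700E_induced had the highest number of missing isoforms and junctions of the 4 groups, but no test of these counts was made, and each came from 2 libraries.

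**Figure D4:**
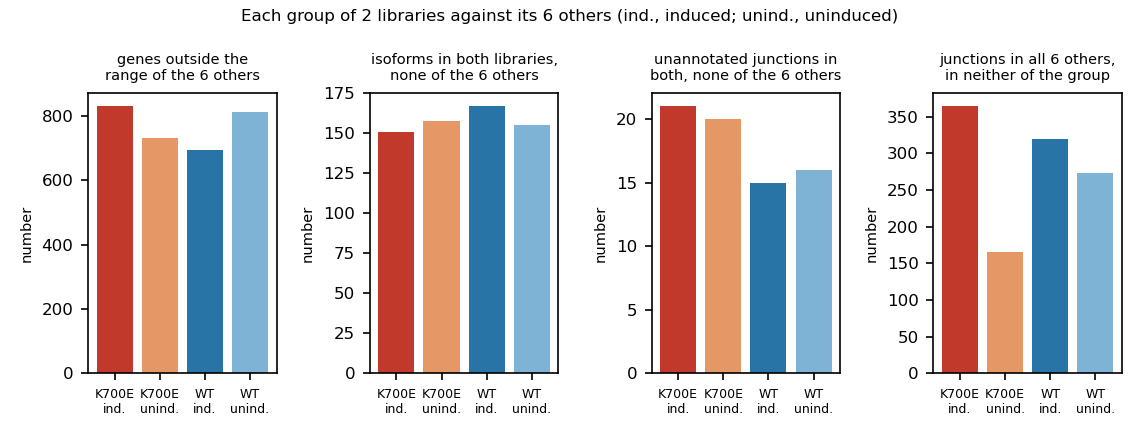
Numbers of genes, isoforms and junctions that set each group of 2 libraries apart from its 6 others, with K700E_induced at the left of each panel. K700E_induced had 831 genes outside the range, 151 isoforms and 21 unannotated junctions of its own, and 364 junctions missing, against 694 to 814, 155 to 167, 15 to 20 and 166 to 319 in the other groups.

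At the level of genes, 2 of 11329 passed limma's test at an adjusted p of 0.05 (0.0177%), and 625 had an unadjusted p under 0.05 (5.52%). MIR4461, a microRNA precursor gene of 74 nt on chromosome 5, was listed at 61990 and 65150 FPKM in K700E_induced and at 0 in all 6 others. It passed the filter on low values only through the K700E_induced libraries, so nothing is read from its p. A feature this short is poorly measured in FPKM, and the value is read here only as listed. ACAT2, a cytosolic thiolase gene of sterol synthesis, was listed at 0 in both K700E_induced libraries and at 30.4, 27.3, 45.3, 22.1, 41.7 and 18.2 FPKM in the 6 others (adjusted p 0.0007178). The gene shares its 3′ end with the oppositely oriented TCP1, and how reads there were divided between ACAT2 and TCP1 was not tested. The ACAT2 call held in each of the 8 fits that left out 1 library (adjusted p 0.001516 to 0.007022).

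In all, 831 genes, MIR4461 and ACAT2 among them, lay outside the range of the 6 others in both K700E_induced libraries (7.34%), 421 above (3.72%) and 410 below (3.62%). The corresponding shares were 6.46% for K700E_uninduced, 6.13% for WT_induced and 7.19% for WT_uninduced against their own 6 others. The genes named next were chosen by the smallest p among those measured in all libraries, and none passed the test over all genes.

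Above the range, IFITM1 was the highest in level. This interferon-inducible gene of antiviral membrane proteins had 1602 and 1932 FPKM in K700E_induced, against 452, 424, 652, 881, 384 and 876 FPKM in the 6 others. Its log2 fold change was 1.61 ± 0.34 (SE; limma adjusted p 0.365). Of the 12 interferon genes tested 1 lay above and 1 below the range, and IRF9, the DNA-binding subunit of the interferon-activated complex ISGF3, was the lower one at 1.70 and 4.03 FPKM against 6.85 to 17.1. The IRF9 log2 fold change was -1.88, and -0.65 with reference transcripts alone. Other genes above the range were PGGHG, a lysosomal glucosidase gene, at 91.7 and 86.3 FPKM against 11.7 to 39.1, VANGL1, a planar polarity gene, at 29.8 and 19.1 FPKM against 2.18 to 6.91, and MMAB, a cobalamin enzyme gene, at 70.5 and 118 FPKM against 2.29 to 26.3.

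Several of the higher genes owed their sum to assembled transcripts. Assembled forms held 54.4% to 83.8% of the summed FPKM of VANGL1, MMAB and PGGHG. With reference transcripts alone, the log2 difference of VANGL1 was 0.44 in place of 2.28, that of MMAB 0.42 in place of 3.65 and that of PGGHG 0.22 in place of 1.94. In the same setting, the log2 difference of LSM14B turned to -0.74, that of NIPA1 to -0.82, RPRD1A to -1.05, LOC728323 to -2.43, FOXP4 to -0.53, UQCC2 to -0.31 and SYT5 to -1.09. IFITM1 was not of this kind, with no assembled form and a difference of 1.61 on reference transcripts.

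Below the range, by the same rule, stood CD68, CD53, LCP2 and NCKAP1L, with LYZ from the list of myeloid markers. CD68, a lysosomal glycoprotein gene of macrophages, had 3.23 and 5.65 FPKM in K700E_induced, against 26.1, 16.1, 10.7, 28.6, 34.6 and 21.99 FPKM in the 6 others (log2 fold change -2.20 ± 0.49 SE, limma adjusted p 0.393). CD53, a tetraspanin gene of leukocytes, was at 7.88 and 2.43 FPKM against 13.3 to 44.2. LCP2, an adaptor gene of immune receptor signalling, was at 4.19 and 1.30 FPKM against 8.21 to 45.7, and NCKAP1L, a haematopoietic gene of the WAVE actin complex, was at 5.65 and 5.95 FPKM against 15.4 to 21.5. LYZ, the lysozyme gene, was at 7.42 and 6.44 FPKM against 12.7 to 24.7. In each of these 5 genes both K700E_induced libraries lay below all 6 others.

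The listed myeloid markers were summed to see whether they moved as a list. All 4 that were tested had a negative fold change, with a median of -1.07 beside 0.010 over all genes. Of these 4, 2 lay below the range, where 3.62% of all genes tested lay. They are CD68 and LYZ, already named above for lying there, so the count adds nothing about the list. The 10 listed markers summed to 56.3 and 40.5 FPKM in K700E_induced and to 65.5 to 141 FPKM in the 6 others. CD68 and LYZ are part of this sum, and without them the sums of the groups overlap. The sum therefore does not show that the list moved as a whole. CD14 and MPO were at 0 in every library. In bulk RNA, fewer cells of a type and less RNA per cell cannot be told apart, and the part of other cells in this difference was not tested.

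The other genes named below the range are given next. IDH3B, a subunit gene of NAD-dependent isocitrate dehydrogenase, had 12.5 and 23 FPKM in K700E_induced, against 67.4, 42.1, 47.7, 62.1, 63.1 and 46.0 FPKM in the 6 others (log2 fold change -1.64 ± 0.32 SE, limma adjusted p 0.23). ACSM3, a mitochondrial acyl-CoA synthetase gene, was at 93.2 and 56.3 FPKM against 146 to 298, MRPS12, a mitochondrial ribosomal protein gene, at 12.8 and 18.6 FPKM against 35.7 to 85.3, and CBR4, a mitochondrial reductase gene, at 1.09 and 1.44 FPKM against 4.37 to 12.3. UFSP2, the protease gene of UFM1, had 0.0618 and 1.04 FPKM against 4.65 to 15.3, PDCD5, an apoptosis-related gene, 16.5 and 44.5 FPKM against 73.4 to 102, and TNFAIP8, an apoptosis regulator gene, 2.73 and 2.04 FPKM against 5.68 to 41.9.

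**Figure D5:**
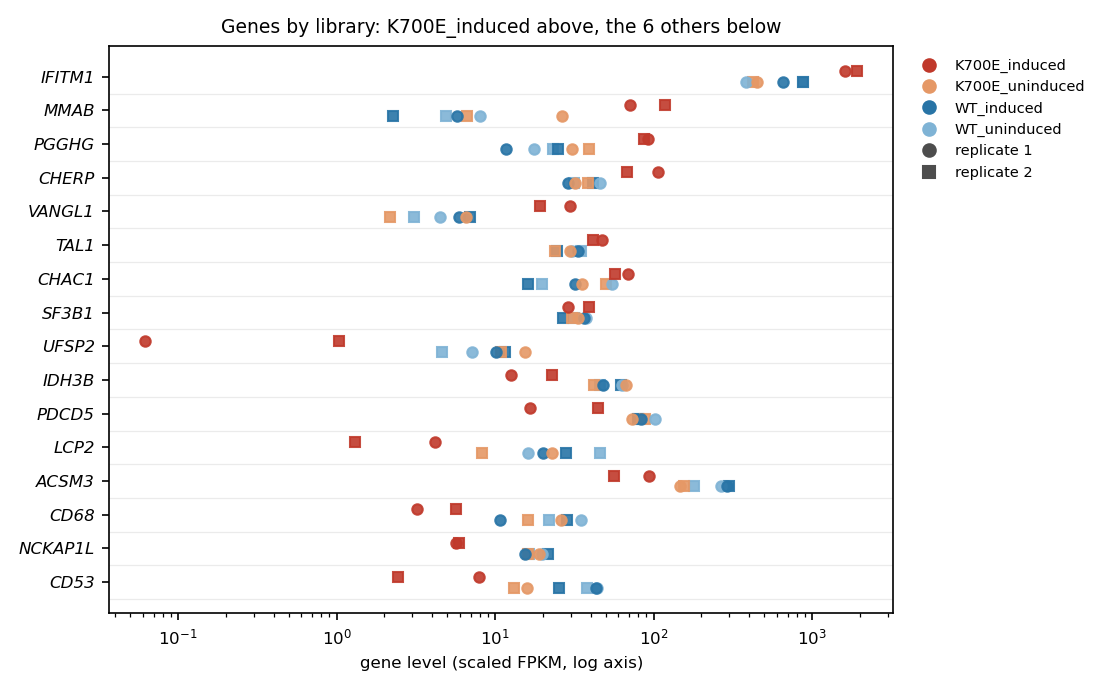
Level of 16 genes in every library, in scaled FPKM on a log axis, with K700E_induced points above and those of the 6 others below the line of each gene. The 7 genes from IFITM1 to CHAC1 were above the range of the others, SF3B1 overlapped with it (1 K700E_induced library within, the other above), and the 8 from UFSP2 to CD53 were below it.

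Genes listed at 0 formed an edge case. Among genes of 300 nt or more, ACAT2, MT2A, NINJ1, KYNU, RTEL1 and MRPS18C were the highest of those at 0 in both K700E_induced libraries and above 0 in all 6 others. MT2A, a metallothionein gene that binds zinc and copper, was listed at 25.9, 49.1, 58.8, 195, 131 and 4.85 FPKM in the 6 others (limma adjusted p 0.169). NINJ1, a gene of plasma membrane rupture, was at 5.42 to 25.1 FPKM there and RTEL1, a helicase gene of telomere maintenance, at 4.05 to 14.1 FPKM (adjusted p 0.0942 each). KYNU, a kynureninase gene, ran from 0.038 to 23.4 FPKM in the 6 others and MRPS18C from 3.70 to 16.0. The reverse, above 0 in both K700E_induced libraries and at 0 in all 6 others, held for LOC100129250 at 15.8 and 8.40 FPKM, DDX11L5 at 7.06 and 2.92 FPKM and LOC100129534 at 3.25 and 4.87 FPKM. All genes tested that were at 0 in K700E_induced alone numbered 21, against 12 in K700E_uninduced, 6 in WT_induced and 22 in WT_uninduced.

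The gene lists are described by counts and medians, with no test of a list, and ACAT2 was the 1 listed gene that passed the test over all genes. Over all genes tested, 3.72% lay above the range, 3.62% below it, and 50.7% had a positive log2 fold change. The counts below stand beside these shares, and nothing particular to a list is read from them. The SF3A and SF3B complex subunits, which bind the branch point with U2, had 1 of 10 below the range, SF3B2 at 95.3 and 101 FPKM in K700E_induced against 105 to 179, and none above. Of 20 genes of branch point and acceptor recognition, 2 lay above the range and none below. CHERP, a U2-associated protein gene, was at 106 and 67.5 FPKM against 28.9 to 45.6, and PUF60, which binds the polypyrimidine tract beside U2AF, at 83.6 and 88.4 FPKM against 35.0 to 67.0. The CHERP log2 fold change was 1.23 ± 0.29 (SE; limma adjusted p 0.443), and it was 0.24 on reference transcripts alone. Of 17 genes of nonsense-mediated decay, SMG1, its initiating kinase, was the 1 above the range, at 10.4 and 10.4 FPKM against 7.82 to 9.79 (adjusted p 0.956).

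No erythroid gene passed the test. All 8 globin genes tested had a positive log2 fold change, with a median of 0.24, yet none was outside the range of the 6 others. Of 13 genes of K562 erythroid identity 12 had a positive value, with a median of 0.21. TAL1, an erythroid transcription factor gene, lay above the range and had 46.9 and 41.6 FPKM in K700E_induced, against 23.9 to 34.6 FPKM in the 6 others, but its log2 difference turned to -0.68 with reference transcripts alone. ZFPM1, the GATA1 cofactor gene FOG1, lay below, at 11.0 and 6.98 FPKM against 11.5 to 44.7. The ZFPM1 log2 fold change was -1.14, and -0.38 with reference transcripts alone. The K562 identity genes summed to 4407 and 7240 FPKM in K700E_induced and 3866 to 8835 FPKM in the 6 others.

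Heme and iron genes bear on ring sideroblasts, the iron-laden erythroblasts of SF3B1-mutant disease. Of 17 heme genes tested 13 had a positive value, with a median of 0.27, and ABCB10, a mitochondrial transporter gene, was the 1 above the range at 38.9 and 49.3 FPKM against 20.9 to 31.4 (limma adjusted p 0.809). ALAS2, the first enzyme of erythroid heme synthesis, was at 43.3 and 63.6 FPKM in K700E_induced and 16.4 to 46.0 FPKM in the 6 others, which overlap. Of 27 iron genes 17 had a negative value, with a median of -0.21. TMEM14C, a heme-precursor transporter gene, was within range at 109 and 76.3 FPKM in K700E_induced against 30.5 to 139 FPKM in the 6 others. HSCB, a co-chaperone gene of iron-sulfur cluster transfer, was at 0 in both K700E_induced libraries and at 0.00717 to 15.5 FPKM in the 6 others (adjusted p 0.904).

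The remaining lists gave single genes. Of 23 integrated stress response genes tested, 3 were above the range and none was below, CHAC1 at 69.2 and 56.7 FPKM in K700E_induced against 16.1 to 55.0, STC2 at 7.21 and 7.55 FPKM against 3.05 to 5.87, and SLC3A2 as given above. Of 24 cell cycle genes 2 lay above and none below, CCNB2, a mitotic cyclin gene, at 75.1 and 101 FPKM against 44.5 to 67.8, and PCNA, the replication clamp gene, at 93.3 and 141 FPKM against 38.5 to 90.1. The PCNA log2 difference of 1.00 turned to -2.90 with reference transcripts alone. Of 19 genes of DNA damage and p53 response 2 lay above, H2AX, a histone variant gene, at 179 and 218 FPKM against 56.8 to 155, and XPC, a nucleotide excision repair gene, at 46.9 and 41.1 FPKM against 20.8 to 40.8. Of 23 cholesterol genes, SC5D, a late desaturase gene, lay above the range at 4.29 and 4.57 FPKM against 2.51 to 3.63, and NSDHL, a sterol dehydrogenase gene, and ACAT2 lay below, NSDHL at 16.7 and 19.1 FPKM against 19.9 to 35.1. No heat shock gene of 15 was outside the range, and of 6 stromal and epithelial markers TIMP1 lay below it, at 139 and 215 FPKM against 218 to 381. Neither the 2 lymphoid markers tested nor the 1 megakaryocyte marker tested lay outside the range.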

How the data were processed

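RNA sequencing gave 8 libraries, 2 in each of 4 groups. The authors deposited FPKM per transcript; the submitters' processing notes name CASAVA, TopHat, Cufflinks and hg19, with no version or setting. A gene's value was the sum over its reference transcripts and the spliced assembled transcripts of 300 nt or more that share introns with it. Transcripts were matched between libraries by their introns. Libraries were scaled by median ratios over 7580 genes (factors 0.99 to 1.04). The 11329 genes with a mean of 1 FPKM or more entered limma 3.58.1 as log2(FPKM + 0.5) (trend, K700E_induced against the 6 others, Benjamini-Hochberg, threshold 0.05) in R 4.3.3. Fold changes understate low genes, and a fitted difference where libraries are listed at 0 depends on the pseudocount and is no bound. Transcripts with a mean share of 5% to 95% and acceptor pairs were tested as log2 ratios with the same pseudocount. Gene, transcript, junction and acceptor levels are all FPKM scaled by these median-ratio factors. Depth is known only through coverage per FPKM; the deposited intervals of long transcripts reached 6.16% to 6.94% to either side, within a library only.

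Named genes were SF3B1, those past the threshold, up to 12 higher and 12 lower outside the range of the 6 others by p (mean of 5 FPKM or more), up to 6 listed at 0 in 1 set alone, up to 3 per gene list, and MAP3K7, TAL1, BRD9, TMEM14C and YIPF2; some genes are not reported here. Isoforms and junctions were taken by level, up to 10 each, and acceptor pairs by p, up to 8. The members, gene lists (19) and rules were chosen with earlier results of these data known. Alternatives covered the pseudocount, the filter, scaling, reference transcripts alone, 4 group means, a replicate block and each library left out. Other items of the files are not analysed here.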

Additional observations from a re-analysis of the deposited data

Results flagged for a closer look

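Among per-library values of the 6 other libraries, 2 stood apart from the rest of their set by Dixon's ratio at the 95% level, where chance flags about 1 in 20 sets. K700E_uninduced replicate 1 had 101 new acceptors 3 to 50 nt downstream of a reference acceptor, against 55 and 64 in the K700E_induced libraries and 55 to 69 in the other 5. WT_induced replicate 1 had a mean upstream share of 56.5% over acceptor pairs 3 to 50 nt apart, against 54.6% and 54.4% in K700E_induced and 53.4% to 54.1% in the other 5.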

How the results depend on the processing

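The count of genes past the threshold, 2 as reported, was 5 with a pseudocount of 0.1, 20 with no filter on low values and 9 with reference transcripts alone, and stayed at 2 with a pseudocount of 1, FPKM as deposited, a mean of 5 FPKM or more and 4 group means; without 1 library it ranged from 2 to 33. The 831 genes outside the range of the 6 others became 654 to 946 under other filters, scaling and transcript sets, and 1075 to 3327 without 1 library, since fewer libraries make separation easier. The 7 transcripts became 0 with a pseudocount of 0.1 and 2 with a mean of 5 FPKM or more (4 to 861 without 1 library). The 2 acceptor pairs became 1 with a pseudocount of 0.1 (1 to 40 without 1 library). Isoforms of K700E_induced alone numbered 151, or 127 at 1 FPKM or more (182 to 2886 without 1 library), and unknown junctions 21, also at 1 FPKM or more (22 to 665). The highest counts came from leaving out a K700E_induced library: 17 and 33 genes, 754 and 861 transcripts, 38 and 40 pairs without replicate 1 and without replicate 2. The excess of new acceptors 10 to 30 nt upstream, 11.5 per library, was 11.0 at 1 FPKM or more and 12.8 at 3 to 50 nt upstream (exact permutation p 0.03571 each; alternatives chosen after seeing the data) and 9.5 to 13.5 without 1 library, where the p could not fall below 0.143 with 1 K700E_induced library. The upstream share differed by 2.26 percentage points, by 0.247 over all pairs 3 to 50 nt apart, and by 1.95 to 2.54 without 1 library; its p fell to 0.0476 without K700E_uninduced replicate 1, WT_uninduced replicate 1 or WT_uninduced replicate 2. Of the settings tried on named genes, 13 turned the sign of a log2 difference. With reference transcripts alone these were LSM14B (-0.74), NIPA1 (-0.82), RPRD1A (-1.05), LOC728323 (-2.43), FOXP4 (-0.53), UQCC2 (-0.31), SYT5 (-1.09), TAL1 (-0.68), PCNA (-2.90) and YIPF2 (-6.38, set by the pseudocount, since its reference form was at 0 in both K700E_induced libraries). Without 1 library the SF3B1 difference ranged from -0.18 to 0.26, negative without K700E_induced replicate 2 or WT_induced replicate 2 (-0.02), and that of MAP3K7 from -1.01 to 0.08, positive without K700E_induced replicate 2. The cause was not tested, except that reference transcripts alone leave out assembled forms.

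Deviations of same-numbered libraries from their group means correlated between -0.027 and 0.079, so the numbers are not taken to pair the samples. With the replicate block 2 genes, 0 transcripts and 2 acceptor pairs passed; the 7 transcript calls, YIPF2 and SNAR-A10 included, had adjusted p 0.0575 to 0.0908. Values listed at 0 and the 2 libraries of K700E_induced limit what these comparisons can show.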
